A study of Arabidopsis thaliana with 6 samples.

Results

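Of the 16167 peaks called in the first anti-GFP ChIP-seq library of *Dex:NTT-GFP* seedlings (NTT replicate 1), 1250 met a peak of the second library (NTT replicate 2) and no peak of the *Dex:TT1-GFP* library. These 1250 regions are the subject here. They were chosen on the peak calls themselves: a peak of NTT replicate 1 had to share at least 1 bp with any of the 7447 peaks of NTT replicate 2, and no base with any of the 12908 peaks of TT1. The 3 lists held 36522 peaks in all. The selected regions made up 7.73% of the NTT replicate 1 peaks (95% Wilson interval 7.33 to 8.15) and 19.4% of the 6439 peaks that were repeated in both NTT libraries; the other 5189 repeated peaks shared at least 1 base with a TT1 peak. They are called NTT peaks without TT1 and NTT peaks with TT1 below. Intervals here cover counting error only, since neighbouring peaks are not independent.

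Both lines were Col-0 seedlings, 7 days old, exposed to 1 µM dexamethasone (Dex) for 8 h in liquid medium, so that GFP-tagged protein was made on induction. In the NTT-GFP line NTT was the tagged protein (2 ChIP libraries), and in the TT1-GFP line TT1 (1 ChIP library). By the study's methods each library came from its own pool of whole seedlings, induced separately, and the fusions stood behind the *pOp6* promoter in seedlings carrying a *35S::LhG4* driver, which is active in most tissues, so that the tagged protein was not limited to the cells that normally hold NTT or TT1. Each ChIP library has an input, for which no peak list was used here, and no induced line without a tagged WIP protein was analysed here.

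NTT (NO TRANSMITTING TRACT) and TT1 (TRANSPARENT TESTA 1) are members of the plant WIP family of zinc finger proteins. *NTT* is known for the transmitting tract of the fruit and, with its close relatives, for the founding of the root meristem, and *TT1* for pigmentation of the seed coat. In plants, GAGA repeats are known targets of the BASIC PENTACYSTEINE (BPC) proteins, the W-box is bound by WRKY factors, and elements around ACGT by bZIP and bHLH factors.

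The sequences below are chosen examples of motifs and base composition found near these summits. Each is read from TAIR10, 5′ to 3′ on the coding strand of the gene whose start site lies nearest to the summit, the point of highest signal that the peak caller gave. Capitals mark matches, on either strand, to the GAGA repeat (GAGAGAG), to CTTCTTC, to CCGCCG, to the ACGTG core or to the W-box, which is TTGACC or TTGACT. The first set is from 4 of the strongest peaks and from *PIN3*, which is shown because the study names the gene. The *PIN3* peak was near the median fold enrichment in replicate 1 (6.30, median 6.13). In replicate 2 it was above the upper quartile (4.86, upper quartile 4.23). All of these 30-base stretches lay wholly in annotated 5′ untranslated sequence. The 30-base stretches in this set and the next were each cut around a match within 100 bp of the summit. Each therefore holds a match by choice. The summit lay inside the stretches of *nPAP* and *PIN3* and outside those of *SDG2*, *AT5G23520* and *AT1G45160*.
*nPAP*, chr4:15849782-15849811, plus strand: cctttgCTCTCTCTCTCTCTCcatctccct
*SDG2*, chr4:8651522-8651551, plus strand: ataatatatacaGAGAGAGAGAGAGattta
*AT5G23520*, chr5:7931726-7931755, minus strand: cgtctctttCTCTCTCTCCGCCGgcgaatt
*AT1G45160*, chr1:17090465-17090494, minus strand: aaccatgaatcCTTCTTCTTCTTCgtctca
*PIN3*, chr1:26743100-26743129, plus strand: caagtcctctcaCTTCTTCTTCTTCctccg
The pyrimidine-rich strand was the coding strand in 4 of these 5 genes, and in *SDG2* the GA strand was. These are chosen examples, so nothing is read from that count. Among other genes with the strongest peaks, the match on the coding strand was purine-rich in *PRF1*, *AT5G23100*, *RS31a* and *PSY*. It was pyrimidine-rich in *BBX21* and *TOPP3*. The next set is from genes of chlorophyll synthesis, a list in which several members carried such a peak. The summit lay outside each stretch of this next set.
*GUN4*, chr3:21949680-21949709, minus strand: ACGTGactcttCTCTCTCttcctctccatc
*CHLM*, chr4:12876930-12876959, plus strand: acgataacaacaCTCTCTCTCTCactgcaa
*GSA2*, chr3:18049650-18049679, plus strand: acgagcgcaagtGAGAGAGtaacagagaaa
The last set, of longer stretches centred on the summit, shows peaks outside untranslated sequence: far upstream of *PSY*, just upstream of *SS2*, over the early coding sequence of *AT3G33530*, and across an exon and intron of *TAAC*.
*PSY*, chr5:5664284-5664434, minus strand: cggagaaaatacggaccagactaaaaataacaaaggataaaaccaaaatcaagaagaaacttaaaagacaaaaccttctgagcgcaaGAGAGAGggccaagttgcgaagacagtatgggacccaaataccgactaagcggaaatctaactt
*SS2*, chr1:27837445-27837595, minus strand: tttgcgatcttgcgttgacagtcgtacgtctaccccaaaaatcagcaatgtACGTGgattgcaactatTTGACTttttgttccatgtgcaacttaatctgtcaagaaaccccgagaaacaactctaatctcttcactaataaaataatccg
*AT3G33530*, chr3:14085356-14085506, plus strand: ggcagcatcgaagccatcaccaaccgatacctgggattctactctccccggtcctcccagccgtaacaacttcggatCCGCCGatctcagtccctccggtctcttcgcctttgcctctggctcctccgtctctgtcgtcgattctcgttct
*TAAC*, chr5:199376-199526, plus strand: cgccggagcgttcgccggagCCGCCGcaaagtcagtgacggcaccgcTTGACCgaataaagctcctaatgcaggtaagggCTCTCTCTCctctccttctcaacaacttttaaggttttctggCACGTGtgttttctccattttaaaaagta
A match marks letters only, and is neither a bound site nor a cause of a peak.

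The strength of the peaks is given as fold enrichment over input, computed by the authors with MACS2. NTT peaks without TT1 had a median fold enrichment of 6.13 in NTT replicate 1 (interval of the median 5.98 to 6.28), with values from 2.78 to 13.6. NTT peaks with TT1 had a median of 7.81 there, and the 4604 replicate 1 peaks found in no other list had 4.81. In NTT replicate 2 the peaks without TT1 had a median of 3.74 (3.69 to 3.78), with values from 2.33 to 6.48, against 4.12 for the peaks with TT1. The peaks were also narrower, with a median width of 244 bp without TT1, against 334 bp with TT1. These values describe the selection, since calls in the same libraries chose the regions. The 2 NTT libraries are not compared with each other in fold enrichment, because the depth of each is unknown.

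Among the repeated peaks sorted by replicate 1 fold enrichment into 4 strata of near-equal size, the share without TT1 was 34.7% in the weakest stratum, 22.7% in the next, 14.0% in the third and 6.34% in the strongest. Weak NTT peaks thus lacked a TT1 call more often than strong ones. Whether the TT1 library held signal below its calling threshold at these regions was not tested; the weakest called peak had a −log10 q of 9.41 in TT1, of 9.14 in NTT replicate 1 and of 9.01 in NTT replicate 2.

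The agreement between the NTT libraries is given as a description, since the rule asked for overlapping peaks and thereby limited how far apart their summits could lie. The summits lay a median of 25 bp apart without TT1 and 24 bp with TT1, and 77.8% of the pairs without TT1, against 75.7% with TT1, lay within 50 bp. In fold enrichment, across the 1250 peaks without TT1 Spearman's rho between libraries was 0.29, and across the 5189 with TT1 it was 0.44. These are descriptions over peaks of the same pair of libraries, and the range of fold enrichment was narrower without TT1.

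**Figure D1:**
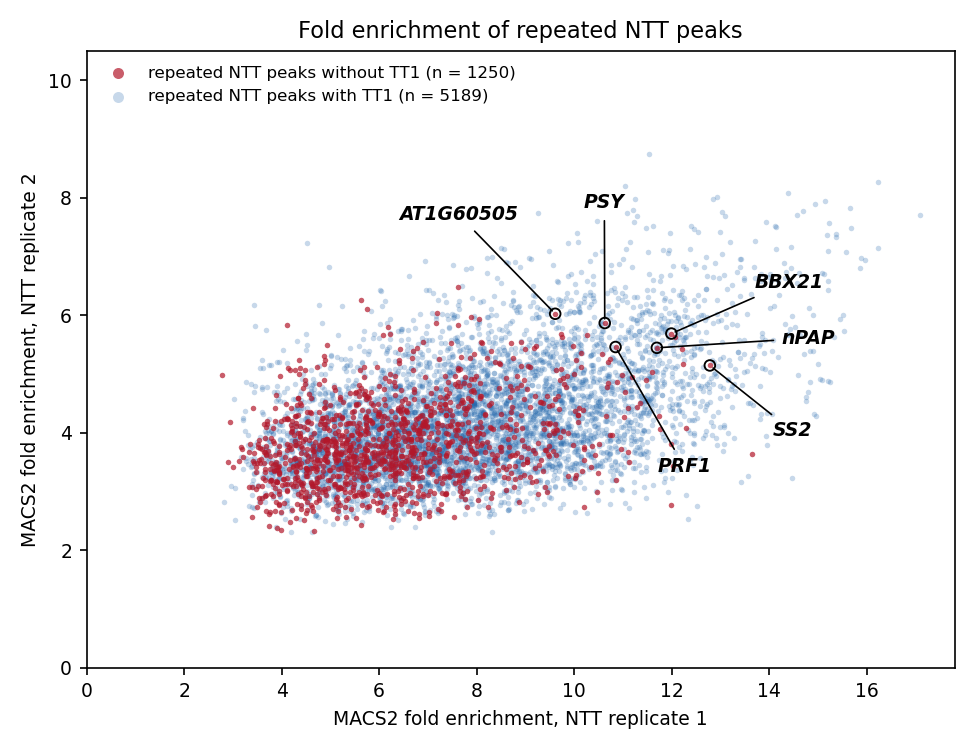
Fold enrichment of each repeated NTT peak in NTT replicate 1 (x axis) and NTT replicate 2 (y axis), both as MACS2 gave them. The 1250 peaks without TT1 (red) lie between 2.78 and 13.6 in replicate 1 and up to 6.48 in replicate 2, inside the lower part of the cloud of 5189 peaks with TT1 (blue); 6 of the strongest peaks without TT1 are ringed and named by gene.

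Of the 1250 peaks, 1126 had a summit inside a target window that ran from −1500 to +1000 bp around the closest start site, and these were assigned to 1114 genes. The other 124 peaks lay outside this window, 42 of them farther upstream and 82 farther downstream. The 1114 genes were 2.94% of the 37899 nuclear genes. The 1023 protein-coding genes among them were 3.73% of 27444. No TT1 peak was assigned to 895 of the 1114 genes (80.3%), while 219 had a TT1 peak elsewhere in the same window, and 89 also had a repeated NTT peak with TT1. Only 12 genes held 2 of the peaks and none held 3.

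The strongest target genes, by mean rank of fold enrichment over both NTT libraries, had varied roles. *BBX21*, a B-box zinc finger protein of light signaling, ranked first, with 11.99 in NTT replicate 1 and 5.69 in NTT replicate 2 at +276 bp in an exon. *nPAP*, a nuclear poly(A) polymerase, had 11.7 and 5.45 in the same libraries at +18 bp. *PSY*, phytoene synthase, the enzyme that commits precursors to carotenoids, had 10.6 and 5.87 at −1362 bp. *PRF1*, the actin monomer-binding protein profilin, had 10.8 and 5.46 at +81 bp. Between these 4 genes the position of the peak ran over more than a kilobase, but only *PSY* had it upstream of the start site.

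*SS2*, annotated as a strictosidine synthase, held the highest replicate 1 value of the 12 leading genes, 12.8, with 5.15 in replicate 2 at −77 bp. *SDG2*, a SET domain histone methyltransferase, had 10.7 in replicate 1 and 5.20 in replicate 2 at +108 bp. *TOPP3*, a type one protein phosphatase, had 10.7 in replicate 1 and 5.25 in replicate 2 at +167 bp. *RS31a*, an RNA-binding protein with RRM domains, had 10.14 in replicate 1 and 5.35 in replicate 2 at −156 bp. *AT1G60505*, a long non-coding RNA gene, had the highest replicate 2 value of the 12, 6.02, with 9.61 in replicate 1 at +33 bp. The remaining 3 were *AT5G23100*, *AT5G23520* and *AT1G45160*, all with the summit in a 5′ untranslated region, replicate 1 values of 9.74 to 10.6 and replicate 2 values of 5.33 to 5.68. Of the 12, *BBX21*, *SS2* and *AT5G23520* had a TT1 target peak elsewhere, and the nearest TT1 peak lay 509 bp (*SS2*) to 24278 bp (*AT5G23100*) away.

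The genes with 2 of the peaks ranked lower. The best placed were *CLPC1*, a chaperone of the chloroplast stroma, with a stronger peak of 7.66 in replicate 1 and 3.91 in replicate 2, *AT2G38330*, a MATE efflux protein, with 5.60 in replicate 1 and 5.07 in replicate 2, and *AT3G61670*, with 5.70 in replicate 1 and 4.65 in replicate 2. *PIN3*, an auxin efflux carrier whose expression the study followed, had 6.30 in replicate 1 and 4.86 in replicate 2 at +163 bp, with the nearest TT1 peak 1250 bp away. None of the 6 *WIP* genes was a target of these peaks. At the 3.73% of all protein-coding genes a list of this size would hold few or none.

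Summits without TT1 lay closer to, and more often just inside, transcribed sequence than summits with TT1. Their median position was 66 bp downstream of the nearest start site (58 to 73), against 6 bp downstream (0 to 13) for NTT peaks with TT1 and 36 bp for replicate 1 peaks in no other list. Between 0 and 200 bp downstream lay 671 of the 1250 summits, or 53.7% (50.9 to 56.4), against 31.2% (29.99 to 32.5) of those with TT1 and 26.8% of those in no other list. Within 500 bp on either side lay 79.2% without TT1, against 63.0% with TT1. Neither the start sites nor the gene models entered the choice of the regions, and the intervals of the shares without and with TT1 did not overlap, though no test was run on them.

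**Figure D2:**
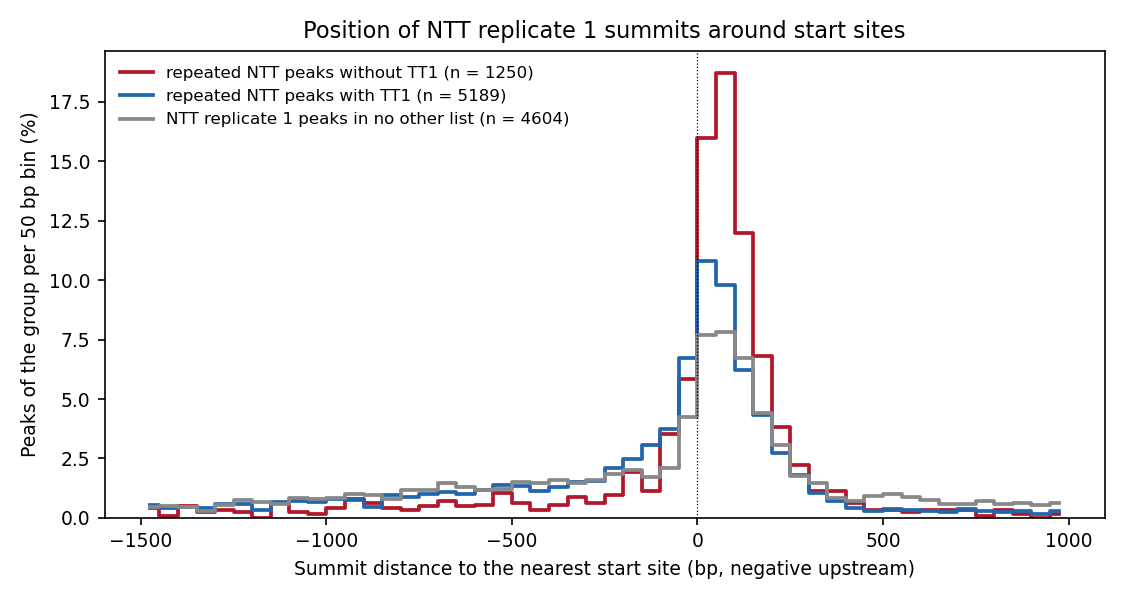
Distance of the NTT replicate 1 summit from the nearest start site (x axis, bp, negative upstream) against the percentage of each group's peaks per 50 bp bin (y axis). Peaks without TT1 (red) gather just downstream of the start site, where 53.7% lie between 0 and 200 bp, against 31.2% of the peaks with TT1 (blue) and 26.8% of replicate 1 peaks in no other list (gray).

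The annotation under the summit followed this. With a promoter taken as the 1000 bp before a start site and given priority over exons, 44.1% of summits without TT1 were in promoters, against 47.3% with TT1, so that the intervals (41.4 to 46.8 and 45.9 to 48.6) overlapped. Exons held 47.0% without TT1 and 31.0% with TT1. Intergenic sequence held 8.32% without TT1 and 20.04% with TT1. Introns held 8 summits without TT1 (0.64%) and 88 with TT1 (1.70%). Over the nuclear genome the same classes took 29.7% (promoter), 38.7% (exon), 13.2% (intron) and 18.5% (intergenic) of the bases. Regardless of the priority, 50.3% of the summits without TT1 were in a 5′ untranslated region, against 34.8% with TT1, and 21.1% were in coding sequence, against 8.73% with TT1.

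The share of repeated NTT peaks that lacked TT1 changed with position. It was 8.52% (42 of 493) beyond 1500 bp upstream, 9.77% from 500 to just over 200 bp upstream, and 15.7% in the last 200 bp before the start site. In the first 100 bp after the start site it was 28.9% (434 of 1504) and in the next 100 bp 30.01% (235 of 783). It was 24.4% from 200 bp up to 500 bp, and 13.0% beyond 1000 bp downstream.

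**Figure D3:**
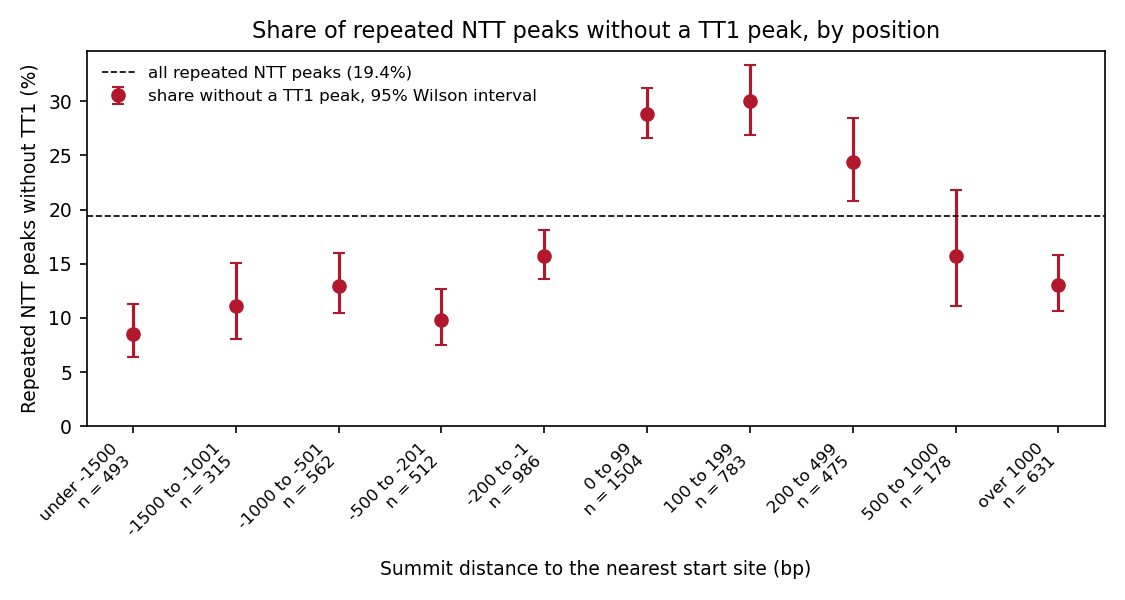
Share of repeated NTT peaks that had no TT1 peak (y axis, %, points with 95% Wilson intervals) by summit distance from the nearest start site (x axis, bp, number of repeated peaks under each bin). The share was 28.9 to 30.01% in the first 200 bp downstream and at most 15.7% in every upstream bin; the dashed line is the 19.4% of all repeated peaks.

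The nearest gene was protein-coding for 91.7% without TT1 and 88.1% with TT1, and a long non-coding RNA gene for 5.20% without TT1 and 7.55% with TT1. Start sites of protein-coding genes on both strands lay within 500 bp of 11.4% of the summits without TT1 (9.79 to 13.3), against 5.69% with TT1 (5.09 to 6.35) and 4.21% of those in no other list. At such places the assignment to 1 gene is uncertain. No protein-coding start site lay within 500 bp of 24.3% of summits without TT1 and 42.0% with TT1. The 5 chromosomes held 14.5 to 25.04% of the peaks without TT1 each, and 14.6 to 27.9% of those with TT1.

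The peaks in introns and between genes were few, and some of the intergenic ones were strong. The intron peaks of highest rank were in *DDL*, an FHA domain protein, with 8.41 in replicate 1 and 3.48 in replicate 2, and *TAAC*, the thylakoid ATP/ADP carrier, with 5.10 in replicate 1 and 4.73 in replicate 2. The best intergenic ones lay at −2644 bp from *AT1G62480*, annotated as a vacuolar calcium-binding protein, with 12.1 in replicate 1 and 5.64 in replicate 2, and at −1615 bp from the non-coding RNA gene *AT4G09655*, with 12.2 in replicate 1 and 5.42 in replicate 2.

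Few of the peaks without TT1 adjoined a TT1 peak. The median distance to the nearest one was 2752 bp, with a lower quartile of 754 bp and an upper quartile of 6429 bp. Within 100 bp of a TT1 peak lay 38 peaks, and 179 lay over 100 and up to 500 bp away, while 154 lay more than 10 kb away. Just inside the rule were the peaks nearest to *AT3G53550* (4 bp from a TT1 peak, fold enrichment of 7.59 in replicate 1 and 4.80 in replicate 2), *AT3G05220* (5 bp, with 5.58 in replicate 1 and 4.63 in replicate 2) and the non-coding RNA gene *AT3G07555* (6 bp, with 4.03 in replicate 1 and 3.21 in replicate 2). Just outside it were peaks that shared 2 bp with TT1 (nearest gene *LOG1*, NTT replicate 1 8.97, TT1 4.43), 8 bp (*CNI1*, NTT replicate 1 5.77, TT1 3.74) and 8 bp (*AT5G46295*, NTT replicate 1 9.28, TT1 2.99). The median TT1 fold enrichment at all NTT peaks with TT1 was 4.93. In all, 18 peaks without TT1 lay within 50 bp of a TT1 peak, and 12 peaks with TT1 shared at most 50 bp with it. Farthest from any TT1 peak were those of *AT3G33530*, a WD-40 repeat protein (600466 bp), *CYP81D1*, a cytochrome P450 (188563 bp), and *AL3*, an Alfin-like protein (128163 bp).

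The sequence within 100 bp of the summit was searched for motifs on both strands, and the shares of summits with a match differed between the groups for several of them. The median GC content was 41.8% without TT1, 38.3% with TT1 and 35.8% in replicate 1 peaks in no other list. GAGAGAG, the GAGA repeat, was present at 478 of the 1250 summits, or 38.2% (35.6 to 41.0), against 27.3% (26.1 to 28.5) with TT1, 19.0% in no other list, 15.1% of windows of the same length centred on all 51778 start sites and 5.83% of tiles of the genome. The W-box was present at 17.4% without TT1 (15.4 to 19.6), against 28.5% with TT1 (27.3 to 29.8), 24.7% in no other list and 20.6% of start sites. ACGTG, the core of the abscisic acid response element, was present at 25.6% without TT1 (23.3 to 28.1), 31.1% with TT1, 20.4% in no other list and 17.8% of start sites. Its longer form CACGTG, the G-box, every match of which also holds ACGTG, was present at 8.24% without TT1, 12.2% with TT1 and 4.87% of start sites.

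**Figure D4:**
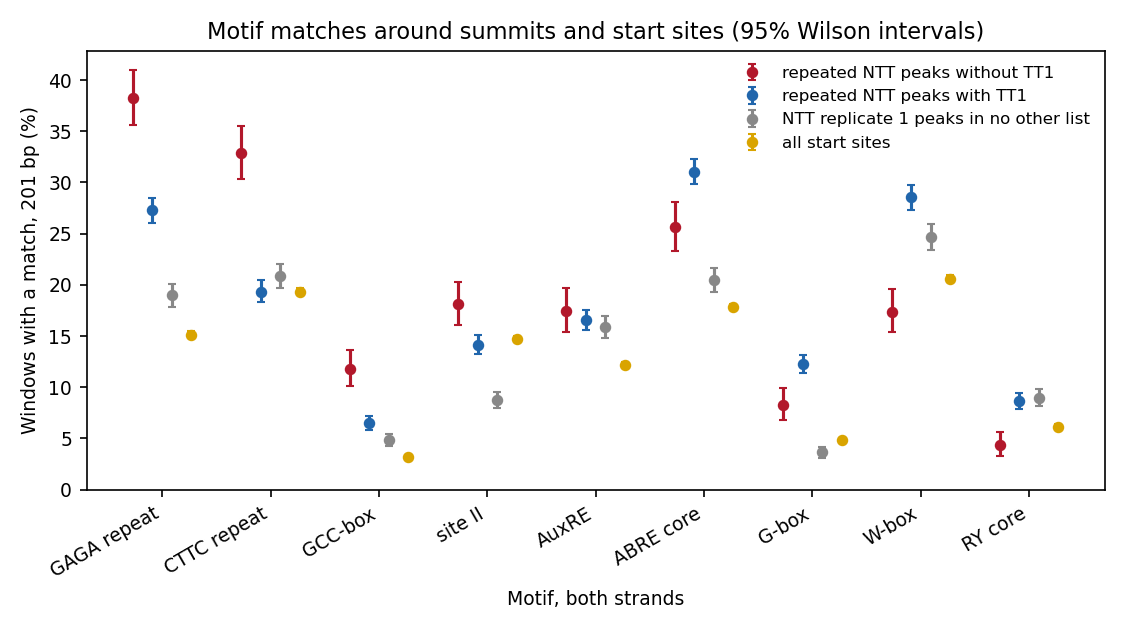
Percentage of windows, 100 bp to each side, with at least 1 match (y axis, points with 95% Wilson intervals) for 9 motifs (x axis) at summits without TT1 (red), summits with TT1 (blue), summits of replicate 1 peaks in no other list (gray) and all start sites (yellow). The GAGA repeat reaches 38.2% without TT1, against 27.3% with TT1, and the W-box 17.4%, against 28.5% with TT1.

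Other sequences rich in pyrimidine on one strand, or in GC, were also frequent. CTTCTTC was present at 32.9% of summits without TT1, against 19.3% with TT1 and 19.3% of start sites. CGGAGA, which can overlap a GAGA run, was present at 25.1% without TT1, against 11.6% with TT1 and 9.50% of start sites. CCGCCG was present at 16.2% without TT1 and 6.57% with TT1, and the GCC-box of ethylene response factors, GCCGCC, which can overlap it, at 11.8% without TT1 and 6.48% with TT1, against 3.72% (CCGCCG) and 3.17% (GCCGCC) of start sites. TATAAA was scarcer, at 17.4% without TT1, against 27.5% with TT1 and 33.1% of start sites. CATGCA, the RY core, was present at 4.32% without TT1 and 8.63% with TT1, and TGTCTC, an auxin response element, at 17.4% without TT1 and 16.5% with TT1. Among all 2080 sequences of 6 bases, counted with their reverse complements, GAGAGA had the largest excess in share, with 59.5% without TT1 and 42.2% with TT1, and ATATAA the largest deficit, with 13.8% without TT1 and 26.2% with TT1. CGGAGA was the 6th and CCGCCG the 15th by excess; these 2 were added to the motifs after the shares of all 6-base sequences had been seen.

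The motif shares were also read at a single position. Among summits 0 to 200 bp downstream of a start site, GAGAGAG was present at 46.9% without TT1 (43.2 to 50.7) and 48.98% with TT1 (46.6 to 51.4), so that the excess seen over all summits was absent there. The W-box was still the scarcer, at 15.4% without TT1 (12.8 to 18.3) and 23.8% with TT1 (21.8 to 25.9). ACGTG was present at 20.9% without TT1 and 23.4% with TT1, with overlapping intervals. CTTCTTC was present at 42.8% without TT1 and 31.5% with TT1, CGGAGA at 32.3% without TT1 and 19.4% with TT1, and CCGCCG at 19.5% without TT1 and 9.69% with TT1. TATAAA was present at 15.4% without TT1 and 26.8% with TT1 in the same stretch.

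Sorted by what lay under the summit, the groups differed by motif. In 5′ untranslated regions GAGAGAG was present at 51.7% of 607 summits without TT1 and 52.0% of 1755 with TT1, and the W-box at 15.2% without TT1 and 23.9% with TT1. In coding sequence GAGAGAG was present at 34.8% of 264 summits without TT1 and 24.1% of 453 with TT1, CCGCCG at 35.2% without TT1 and 21.0% with TT1, and CGGAGA at 42.0% without TT1 and 24.1% with TT1. In promoters clear of untranslated and coding sequence ACGTG was present at 41.4% of 232 summits without TT1 and 36.5% of 1642 with TT1, GAGAGAG at 20.7% without TT1 and 14.6% with TT1, and the W-box at 24.6% without TT1 and 30.3% with TT1. GAGA and CT repeats thus belonged mainly to the summits in 5′ untranslated sequence, in both groups.

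The GAGA and W-box shares were also read within strata of peak strength and GC content. In the weakest stratum of fold enrichment GAGAGAG was present at 31.8% of summits without TT1 and 21.8% with TT1, and in the strongest at 51.0% without TT1 and 33.6% with TT1. The W-box was present at 17.0% without TT1 and 27.2% with TT1 in the weakest stratum, and at 14.7% without TT1 and 28.8% with TT1 in the strongest. Among 4 strata of GC content, in the poorest GAGAGAG was present at 22.5% without TT1 and 15.04% with TT1, and in the richest at 43.6% without TT1 and 37.5% with TT1. The W-box was present at 17.9% without TT1 and 31.4% with TT1 in the GC-poorest stratum, and at 16.4% without TT1 and 26.8% with TT1 in the richest. The share of repeated peaks without TT1 itself was 9.72% in the GC-poorest stratum and 33.3% in the richest.

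The position and strand of the GAGA repeat were read where it was present. The search reached only 100 bp from the summit and the nearest match was taken, which limits the distances. Windows without a peak were not read in this way. The median distance of the nearest match to the summit was 23 bp without TT1 and 22 bp with TT1, and 53.6% of the 478 summits without TT1 had it within 25 bp. The CT strand was the coding strand of the nearest gene for 67.6% of summits without TT1 and 65.7% with TT1, the GA strand for 26.8% without TT1 and 27.1% with TT1, and both occurred in the rest. In replicate 1 peaks in no other list the median distance was 26 bp and the CT share 62.2%. In replicate 1 peaks with TT1 but not in replicate 2 they were 27 bp and 61.8%. At least 3 matches, overlapping ones included, were counted at 43.3% of the summits with the repeat without TT1 and at 42.4% with TT1. Peaks without TT1 that held the repeat had a median fold enrichment of 6.52 in replicate 1 and 3.79 in replicate 2, against 5.86 in replicate 1 and 3.71 in replicate 2 for those that did not. No GAGAGAG, W-box or ACGTG was found at 457 of the 1250 summits (36.6%), and those had medians of 6.04 in replicate 1 and 3.68 in replicate 2.

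The target genes were set against lists of genes, chosen with earlier results of these data known. Some lists are of pathways that the study or the biology of NTT concerns. Others, such as those of chlorophyll synthesis and the actin cytoskeleton, are not. Chlorophyll synthesis held 5 targets among 14 genes (35.7%), against 3.73% of all protein-coding genes. It held no target of an NTT peak with TT1, which 12.4% of all protein-coding genes were. At 12.4% a list of this size would hold few or none, so nothing is read from that absence. *CHLM*, which methylates Mg-protoporphyrin, had 7.45 in replicate 1 and 4.12 in replicate 2 at −31 bp. *CRD1*, a subunit of the cyclase that forms protochlorophyllide, had 6.24 in replicate 1 and 3.38 in replicate 2 at +90 bp. *GUN4*, a porphyrin-binding activator of Mg-chelatase, had 7.02 in replicate 1 and 2.58 in replicate 2 at +35 bp. *GSA2*, an aminotransferase that supplies the precursor of all tetrapyrroles, had 6.28 in replicate 1 and 2.53 in replicate 2 at +117 bp, and *GUN5*, the large subunit of Mg-chelatase, had 4.63 in replicate 1 and 2.73 in replicate 2 at +98 bp. All 5 summits lay within 117 bp of the start site and none of the genes had a TT1 target peak, but only *CHLM* was above the median of all 1250 peaks in both libraries. The list is short, and no test was run on its count.

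Of 21 genes of the actin cytoskeleton, 4 were targets without TT1 (19.05%) and 5 with TT1 (23.8%), against 3.73% without TT1 and 12.4% with TT1 of all protein-coding genes. *ADF3*, an actin depolymerizing factor, had 10.9 in replicate 1 and 4.87 in replicate 2 at +94 bp, next in strength to *PRF1* within the list. *PRF2*, a second profilin, had 7.003 in replicate 1 and 3.80 in replicate 2 at +221 bp, and *VLN2*, an actin-bundling villin, 5.31 in replicate 1 and 2.998 in replicate 2 at +280 bp. The genes of this list with an NTT peak with TT1 included the actins *ACT2* and *ACT7*. No test was run on these counts.

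Of 29 genes of cytokinin signaling and turnover, 5 were targets without TT1 (17.2%) and 2 with TT1 (6.90%), against 3.73% without TT1 and 12.4% with TT1 of all protein-coding genes. *ARR12*, a type-B response regulator that activates transcription, had 7.85 in replicate 1 and 4.81 in replicate 2 at +220 bp, and *AHK2*, a cytokinin receptor, 6.52 in replicate 1 and 3.49 in replicate 2 at +14 bp. Neither had a TT1 target peak. *ARR4*, a type-A regulator that dampens the response, had 11.1 in replicate 1 and 3.50 in replicate 2 at +126 bp, with a TT1 peak 687 bp away. *AT2G41310* (*ARR8* in the list, *RR3* in RefSeq), another type-A gene, and *CKX6*, a cytokinin oxidase, had the peak at −534 and −1112 bp, and TT1 peaks 470 and 477 bp away. *AT2G41310* had 6.32 in replicate 1 and 3.95 in replicate 2. *CKX6* had 4.41 in replicate 1 and 3.74 in replicate 2, and the summit assigned to it lay in an annotated exon. Of the 5 targets, only 2 had no TT1 target peak.

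The other lists held 0 to 2 targets each, and at the 3.73% without TT1 and 12.4% with TT1 of all protein-coding genes lists of this size would hold few or none, so that nothing is read from these counts. In auxin transport 2 of 15 genes were targets without TT1, *PIN3* and *ABCB19*, an auxin efflux pump, with 7.88 in replicate 1 and 3.87 in replicate 2 at +59 bp. In carotenoid and plastid isoprenoid synthesis *PSY* was the sole target without TT1 among 17 genes, and 3 had an NTT peak with TT1. In cellulose synthesis *CESA1*, a primary wall cellulose synthase, was the sole target among 11, with 7.63 in replicate 1 and 4.04 in replicate 2 at +306 bp and a TT1 peak 106 bp away, while 5 genes had an NTT peak with TT1. In transmitting tract and fruit patterning 1 of 15 was a target, *ARF8*, an auxin response factor, with 4.37 in replicate 1 and 4.51 in replicate 2 at −76 bp, while 3 genes had an NTT peak with TT1. None of 21 root hair genes and none of 9 root stem cell niche genes was a target without TT1, and 1 gene of each list was a target with TT1.

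Gene classes were read from the annotated product names. A target without TT1 is a gene with such a peak, and it can also hold a TT1 peak elsewhere in its window. No TT1 target peak was assigned to 20 of the 25 RNA-binding targets, 22 of the 32 kinase targets and 4 of the 8 homeobox targets given below. *PSAD-1*, also given below, had a TT1 target peak, with a TT1 peak 178 bp away. RNA-binding proteins held 25 targets without TT1 among 280 genes, or 8.93% (6.12 to 12.8), against 3.73% of all protein-coding genes. *RS31a* was the strongest of them, followed by *RBP45B*, with 8.25 in replicate 1 and 4.47 in replicate 2. Translation factors held 10 among 131 (7.63%, 4.199 to 13.5), led by *eIF6A*, a ribosome assembly factor, with 9.55 in replicate 1 and 4.47 in replicate 2. Photosystem and light-harvesting proteins held 5 among 68 (7.35%, 3.18 to 16.1), led by *PSAF* and *PSAD-1* of photosystem I, with 7.42 and 4.55 in replicate 1 and 3.79 and 4.66 in replicate 2. Ribosomal proteins held 16 among 344 (4.65%, 2.88 to 7.42). By product name *AT2G18110* and *AT3G22980* were counted both there and among translation factors, so neither class is a clean family. The intervals of the photosystem and ribosomal classes included the 3.73%. With TT1, RNA-binding proteins held 32 targets (11.4%), translation factors 15 (11.5%), photosystem and light-harvesting proteins 12 (17.6%) and ribosomal proteins 25 (7.27%). Of all protein-coding genes 12.4% were targets with TT1.

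The shares of further classes, of regulators, kinases and surface proteins, are given beside the 3.73% without TT1 and 12.4% with TT1 of all protein-coding genes. Of 72 *WRKY* genes 1 was a target without TT1, *WRKY32*, with 5.06 in replicate 1 and 3.26 in replicate 2, and 25 were targets with TT1 (1.39% without TT1 and 34.7% with TT1). Of 180 *MYB* and related genes 3 were targets without TT1 (1.67%) and 26 with TT1 (14.4%), with *AT5G47390* (11.1 in replicate 1, 3.67 in replicate 2) and *MYB7* (7.94 in replicate 1, 3.64 in replicate 2) in front. Of 118 *NAC* genes 2 were targets without TT1, *NAC082* (12.3 in replicate 1, 4.09 in replicate 2) and *CUC1*, a boundary gene (6.44 in replicate 1, 2.85 in replicate 2), and 22 with TT1 (1.69% without TT1 and 18.6% with TT1). Resistance proteins of the TIR and NB-LRR kinds held 2 targets without TT1 among 194 genes (1.03%) and 26 with TT1 (13.4%). Pectin enzymes held 2 among 259 without TT1 (0.772%) and 18 with TT1 (6.95%), both below the shares of all protein-coding genes. Protein kinases held 32 among 889 (3.60%) without TT1, and 170 (19.1%) with TT1. Homeobox factors and homeodomain-like proteins, 1 class by product name, held 8 among 208 (3.85%) without TT1 and 47 (22.6%) with TT1. This class took in proteins such as *PC-MYB1*, which the *MYB* class left out, so neither class is a clean family. Without TT1, kinases and the homeobox class were close to all protein-coding genes. The intervals without TT1 of the *WRKY* (0.246 to 7.46), *MYB* (0.568 to 4.78) and *NAC* classes (0.466 to 5.97) included the 3.73%. Differences between classes were not tested. More classes were read than are given here, and the intervals are not adjusted for their number.

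**Figure D5:**
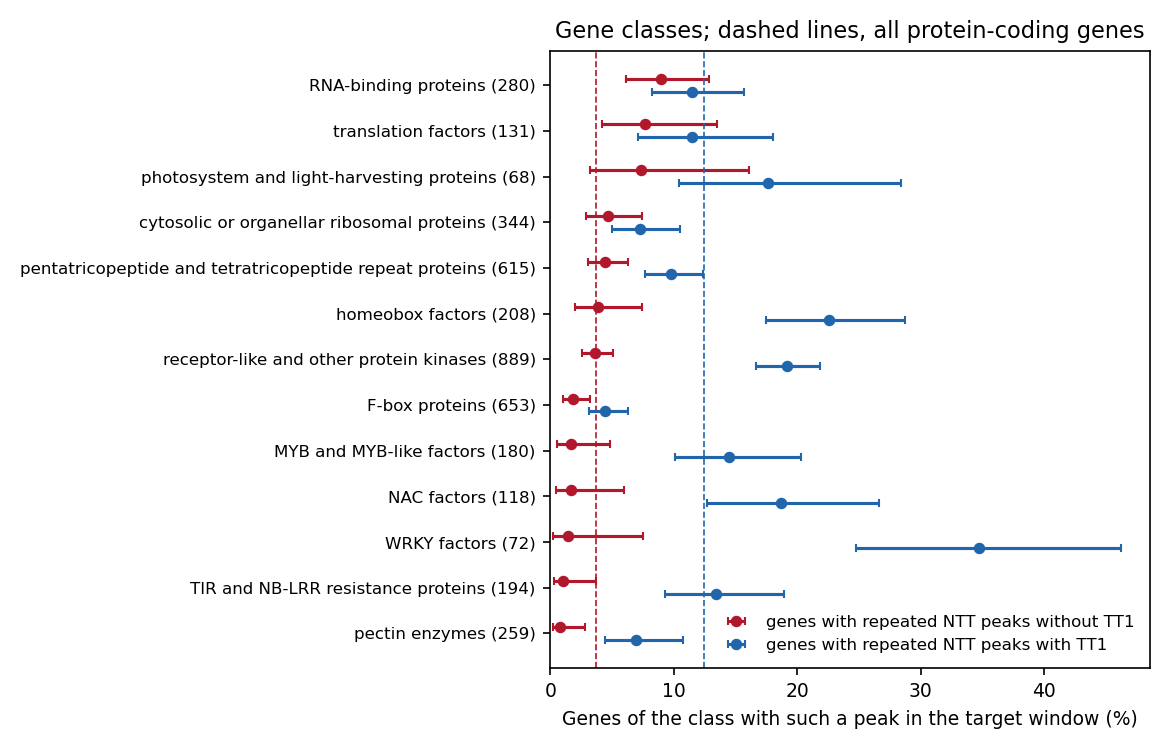
Percentage of the genes of each class (rows, number of genes in brackets) with a repeated NTT peak in the target window (x axis, points with 95% Wilson intervals), without TT1 (red) and with TT1 (blue). The dashed lines are the 3.73% and 12.4% of all protein-coding genes. RNA-binding proteins reach 8.93% without TT1. *WRKY* factors have 1.39% without TT1 (1 gene, interval 0.246 to 7.46), against 34.7% with TT1.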

How the data were processed

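The deposited peak lists of 3 ChIP libraries were used. Per the labels and the study's methods, single-end reads were mapped to TAIR10 with BWA, filtered with SAMtools for unique mapping, cleared of duplicates with Picard, and peaks were called for each library against input with MACS2 2.1.2. The authors deposited, for each peak, its fold enrichment (a linear ratio), −log10 p, −log10 q, a score and the summit offset. Reads were not used here, and the depth of the libraries is unknown. Peaks were compared by shared bases, and each replicate 1 summit was given to the nearest RefSeq start site. Sequence came from the RefSeq nuclear assembly, whose chromosomes were taken to be those of TAIR10; no peak ran past a chromosome end. Motifs were searched within 100 bp of summits. Shares have 95% Wilson intervals, medians order-statistic intervals. Alternatives were a stricter q, other overlaps, target windows, promoter lengths and motif windows, and leaving out each NTT library. No test was run, because the peak calls chose the regions. Regions, gene lists and classes were chosen with earlier results of these data known, and 2 class patterns were corrected after their matches were seen. Genes named are the 12 with the best mean rank, up to 4 for each list and 2 for each class, those with most peaks, genes the study names, peaks nearest to the rule's edge, and the strongest of each annotation class; *GUN5*, *CKX6* and *MIR404*, the lowest ranked of their lists, were added after their values were seen. Python 3.11.15, pandas 2.3.3, SciPy 1.17.1 and Biopython 1.88 were used, with steps tested on simulated data.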

Additional observations from a re-analysis of the deposited data

How the results depend on the processing

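Leaving out an NTT library, so that the other alone without TT1 was kept, gave 1819 to 5854 peaks against 1250, 1582 to 4382 target genes against 1114, and 1270 to 3144 of them without a TT1 target peak against 895. The share of replicate 1 peaks was 36.2% without NTT replicate 2, against 7.73%. The median fold enrichment was 5.02 in replicate 1 without NTT replicate 2 and 3.64 in replicate 2 without NTT replicate 1. The promoter share was then 42.7 to 49.5%, the median distance 45 to 46 bp, and the shares with GAGAGAG 23.1 to 30.3%, with a W-box 20.5 to 23.1% and with ACGTG 21.5 to 33.4%. With a −log10 q of at least 20 in all lists, 654 peaks (4.59% of replicate 1) remained, with 588 target genes, 479 of them without a TT1 target peak, medians of 6.79 in replicate 1 and 4.27 in replicate 2, a median distance of 51 bp, and ACGTG at 29.8%. With no TT1 peak within 500 bp the share was 6.39%. A promoter of 500 bp held 30.4%. Within 50 bp of the summit GAGAGAG was present at 29.8%, a W-box at 7.60% and ACGTG at 13.1%, over the whole peak at 42.6%, 22.9% and 30.8%, and at summits 0 to 200 bp downstream, an alternative chosen after seeing the data, at 46.9%, 15.4% and 20.9%. In all, 37 values, some of them given above, stayed within the interval of the main value or, for counts, within 1.5 times of it. The other 34 values moved outside these limits. Against NTT peaks with TT1, the order of the shares held at a −log10 q of at least 20: 53.8% without TT1 and 31.8% with TT1 lay 0 to 200 bp downstream, 40.7% without TT1 and 29.4% with TT1 held GAGAGAG, and 18.0% without TT1 and 27.7% with TT1 a W-box. No paired analysis was possible because TT1 has a single ChIP library and no test was run. With 1 TT1 library, a missing TT1 peak has no replicate check.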

Other observations

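Some of the peaks without TT1 belonged to genes that are not translated. Of the 1114 target genes, 58 were long non-coding RNA genes and 3 were microRNA genes. The share among all long non-coding RNA genes is not given here, so nothing is read from the 58. The 3 were 0.912% of 329 microRNA genes (0.311 to 2.65), against 2.94% of all nuclear genes, and 20 microRNA genes (6.08%) had an NTT peak with TT1. *MIR169b*, whose product targets NF-YA factors, had 8.81 in NTT replicate 1 and 4.15 in NTT replicate 2 at −215 bp. *MIR393b*, whose product targets auxin receptors, had 4.78 in replicate 1 and 4.14 in replicate 2 at −1117 bp, and *MIR404* had 5.17 in replicate 1 and 3.66 in replicate 2 at −648 bp. A tRNA gene was nearest to 8 of the 1250 summits without TT1 (0.64%) and to 33 of the 5189 with TT1 (0.636%).

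Some small classes are given beside the 3.73% without TT1 and 12.4% with TT1 of all protein-coding genes. Of 19 genes of proton ATPase subunits 3 were targets without TT1 (15.8%, 5.52 to 37.6) and 2 with TT1, led by *VHA-A*, the catalytic subunit of the vacuolar pump, with 6.89 in replicate 1 and 4.18 in replicate 2 at −14 bp. Of 30 genes of tubulins and proteins that bind or modify them 4 were targets without TT1 (13.3%, 5.31 to 29.7) and 6 with TT1, led by *TUB1* with 5.69 in replicate 1 and 3.60 in replicate 2 at +194 bp. No kinesin gene of 45 was a target without TT1 (upper bound 7.87%, above the share of all protein-coding genes), and 5 were targets with TT1. No gene of 113 for arabinogalactan and extensin proteins was a target without TT1 (upper bound 3.29%), and 14 were targets with TT1. None of these differences was tested.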
